A study of Mus musculus with 19 samples.

Results

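Striatal RNA of 9 PFC_D2R-KO mice was compared with that of 10 control mice, with the challenge injection taken into account, so that the comparison asks which striatal transcripts differ with the prefrontal knockout whatever the animal was given on the last day. All 19 libraries of the study entered it: 4 KO mice after amphetamine, 5 control mice after amphetamine, 5 KO mice after saline and 5 control mice after saline, each library being 1 mouse. Every mouse was a male of 4 months from the D2RCre_floxCas9-EGFP line, in which Cas9 is made only in cells that express Cre from the D2 receptor promoter. KO mice had an AAV5 with D2R-sgRNA and mCherry placed in the medial prefrontal cortex, and control mice had AAV5 syn-mCherry there, so both groups carry the Cre and Cas9 alleles and a virus. From 3 weeks after surgery the mice had daily saline for 5 days, and on day 9 either an injection of amphetamine at 3 mg/kg or of saline, with movement recorded for 30 min after injections. The time of death, 90 min after the last injection, is stated for amphetamine. The authors' amphetamine table for KO mice records 1 library as omitted, and that one was not analysed here. Prefrontal tissue was not measured, so these data hold no check of the knockout itself, and striatal Drd2 lies outside the injected region.

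The D2 receptor is an inhibitory G protein-coupled dopamine receptor. In the striatum it marks the projection neurons of the indirect pathway and is also found on cholinergic interneurons and on dopamine axons, whereas in the medial prefrontal cortex it is found on a part of the pyramidal cells and interneurons. Prefrontal pyramidal cells send glutamatergic axons to the striatum, where they meet dopamine input on the dendrites of projection neurons. Amphetamine releases dopamine and induces immediate early genes in these neurons.

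Library totals ran from 72759747 to 85536346 counts in KO mice, with a median of 79060146, and from 57003408 to 80857642 in control mice, with a median of 71979694. KO libraries were deeper (two-sided exact permutation test of the mean, p = 0.00297, n = 9 and 10), and a fit with the library total as a covariate is given among the alternatives. At 1 CPM (counts scaled to a common library size), a gene had at least 57 counts in each library. Markers of striatal projection neurons were high in every library, with a mean log2 CPM over 20 genes from 6.09 to 7.31 in KO mice and from 6.86 to 7.65 in control mice. Single libraries that touch a result are given beside it: amphetamine KO library 3 was the lowest of all in projection neuron and cholinergic genes, and saline KO library 3 had more reads on short genes than any other. Since RNA came from whole tissue, fewer cells of a type and less RNA per cell cannot be told apart.

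No gene passed the test for genotype across both treatments. Of 21513 genes tested with edgeR, 0 (0%) had an adjusted p under 0.05, and the smallest adjusted p was 0.397. At an unadjusted p under 0.05 there were 1304 genes higher in KO mice (6.06% of all tested) and 1038 lower (4.82%), or 2342 in all, against 1076 that this threshold gives on average with no difference. DESeq2 also called 0 genes, with 2555 at an unadjusted p under 0.05 and a smallest adjusted p of 0.0773, and limma voom called 0. No gene had every KO library above every control library (0%), and none had every KO library below (0%). The median absolute log2 fold change was 0.10. The genes below are therefore given as values, and no difference between KO and control mice in them is called. Those picked by small p tend to separate the groups because of that choice. How many of all genes separate the groups within a treatment was not counted. Nor was the number with every KO library on the same side of the control median.

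Taken within a treatment, edgeR called 0 genes (0%) between KO and control mice after amphetamine and 0 (0%) after saline, with 2749 and 1708 genes at an unadjusted p under 0.05. Without amphetamine KO library 2 the first number was 1575, and without saline KO library 3 the other was 978. The interaction, which asks whether the KO difference is not the same after amphetamine as after saline, called 0 genes (0%), with 1991 at an unadjusted p under 0.05. DESeq2 called 103 genes after amphetamine, 2 after saline and 14 for the interaction.

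Kantr, a transcript encoded next to Kdm5c on the X chromosome (chrX:151077824-151110491, build GRCm39), had the smallest p. It stood at 53.5, 57.7, 66.1 and 52.99 CPM in amphetamine KO mice, against 46.1, 47.5, 42.3, 47.0 and 47.6 CPM in amphetamine control mice. After saline it had 61.8, 54.8, 58.0, 62.1 and 50.2 CPM in KO mice, against 52.4, 46.3, 52.1, 50.1 and 43.3 CPM in control mice. All 4 KO libraries lay above all 5 control libraries after amphetamine, a separation not counted over all genes, and the groups overlapped after saline. Its log2 fold change was 0.27 ± 0.0559 (SE; edgeR, adjusted p = 0.397), or 0.32 after amphetamine and 0.23 after saline.

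Prr13, which encodes a proline-rich protein (chr15:102367463-102371241), had 25.6, 27.5, 37.8 and 26.4 CPM in amphetamine KO mice, against 22.3, 24.3, 25.04, 22.5 and 21.2 CPM in amphetamine control mice. After saline it had 35.0, 29.5, 36.3, 34.1 and 30.4 CPM in KO mice, against 24.04, 22.8, 22.9, 33.3 and 24.6 CPM in control mice. The KO libraries lay above the control libraries in both treatments apart from saline control library 4, and the log2 fold change was 0.36 ± 0.0806 (adjusted p = 0.397). Rnd1, a small GTPase that loosens actin and acts on neurite and spine shape (chr15:98561302-98575342), gave a like picture. It had 14.02, 16.5, 20.4 and 14.4 CPM in amphetamine KO mice, against 12.6, 12.4, 9.92, 11.9 and 11.8 CPM in amphetamine control mice. In saline KO mice it had 18.6, 16.0, 21.5, 20.7 and 17.7 CPM, against 12.4, 10.9, 14.7, 20.9 and 12.7 CPM in saline control mice. Here too, within each treatment, saline control library 4 was the only control library within the KO range, and the log2 fold change was 0.44 ± 0.103 (adjusted p = 0.397). Without that library the values were 0.42 for Prr13 and 0.53 for Rnd1, and the smallest adjusted p of the fit was 0.0804, with 0 genes called.

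Other genes among the 12 with the smallest p on the higher side were Cmtm3, a MARVEL-domain membrane protein, Cbfb, the subunit that stabilises RUNX transcription factors on DNA, and Cd81, a tetraspanin. Cmtm3 ran from 7.37 over a median of 8.53 to 13.3 CPM in KO mice, against 5.53, 6.71 and 7.97 CPM in control mice. For Cbfb the lowest, median and highest values were 21.4, 25.1 and 27.9 CPM in KO mice, against 16.8, 20.3 and 24.3 CPM in control mice. Cd81 had 263, 300 and 415 CPM in KO mice, the highest in saline KO library 3, against 220, 256 and 299 CPM in control mice. In all 3 genes, picked by their small p, the groups overlapped while each of the 9 KO libraries lay above the control median. The log2 fold changes were 0.42, 0.27 and 0.25. Marveld2, the tricellulin of 3-cell junctions, averaged 0.874 ± 0.13 CPM in KO mice and 0.605 ± 0.12 CPM in control mice (SD, n = 9 and 10). Olfr700, an olfactory receptor gene, and Adgre4, an adhesion receptor of myeloid cells, were under 0.5 CPM in every library, with log2 fold changes of 1.10 and 1.15. The predicted genes Gm11732, Gm3636 and Gm8281 complete these 12, at 0.87, 0.43 and 0.66.

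On the lower side, Ddx55, a DEAD-box RNA helicase (chr5:124690927-124707723), had 24.5, 21.9, 19.7 and 21.2 CPM in amphetamine KO mice, against 26.8, 25.6, 25.2, 23.9 and 24.4 CPM in amphetamine control mice. After saline it had 22.1, 20.9, 23.1, 20.3 and 22.6 CPM in KO mice, against 24.7, 23.4, 26.5, 24.6 and 25.6 CPM in control mice. The saline groups did not overlap, the amphetamine groups overlapped by 1 KO library, and the log2 fold change was -0.20 ± 0.0479 (adjusted p = 0.397). Eml5, a microtubule-associated protein (chr12:98753064-98867743), had 90.9, 70.9, 65.1 and 90.0 CPM in amphetamine KO mice, against 91.6, 106, 109, 102 and 103 CPM in amphetamine control mice. In saline KO mice it had 89.0, 78.4, 55.4, 68.6 and 76.0 CPM, against 98.4, 124, 103, 77.1 and 80.7 CPM in saline control mice. Eml5 thus separated the groups after amphetamine and not after saline, at a log2 fold change of -0.38 ± 0.0936 (adjusted p = 0.397). The share of all genes that separate the groups within a treatment was not counted.

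Kdm4b, a histone H3 lysine demethylase, ran from 47.4 over a median of 55.9 to 64.7 CPM in KO mice, against 55.8, 68.3 and 75.7 CPM in control mice. Prkcb, the beta form of protein kinase C, had 261, 372 and 419 CPM in KO mice, against 334, 446 and 510 CPM in control mice. Dclk2, a doublecortin-like kinase on microtubules, had 74.6, 86.4 and 92.5 CPM in KO mice, against 86.3, 97.7 and 107 CPM in control mice. For these 3 genes, also picked by small p, 0 of 9 KO libraries lay above the control median, and the log2 fold changes were -0.24, -0.36 and -0.19. Ccdc88c, also known as Daple and a regulator of Wnt signalling, had a log2 fold change of -0.40. Ccno, a cyclin used by cells that build many cilia, was at -0.54, and Aldh1a7, an aldehyde dehydrogenase, was at -0.98 from a mean of 0.627 CPM in KO mice and 1.25 CPM in control mice. Gm10322, Gm10060, Gm9754 and Gm45342 were the remaining genes on this side, with log2 fold changes of -1.70, -0.83, -0.73 and -0.83 at mean levels of at most 1.28 CPM in either genotype. Whether reads were counted by strand is not given in the sources used here. Reads of overlapping genes and of near-identical copies can therefore have been shared between them.

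**Figure D1:**
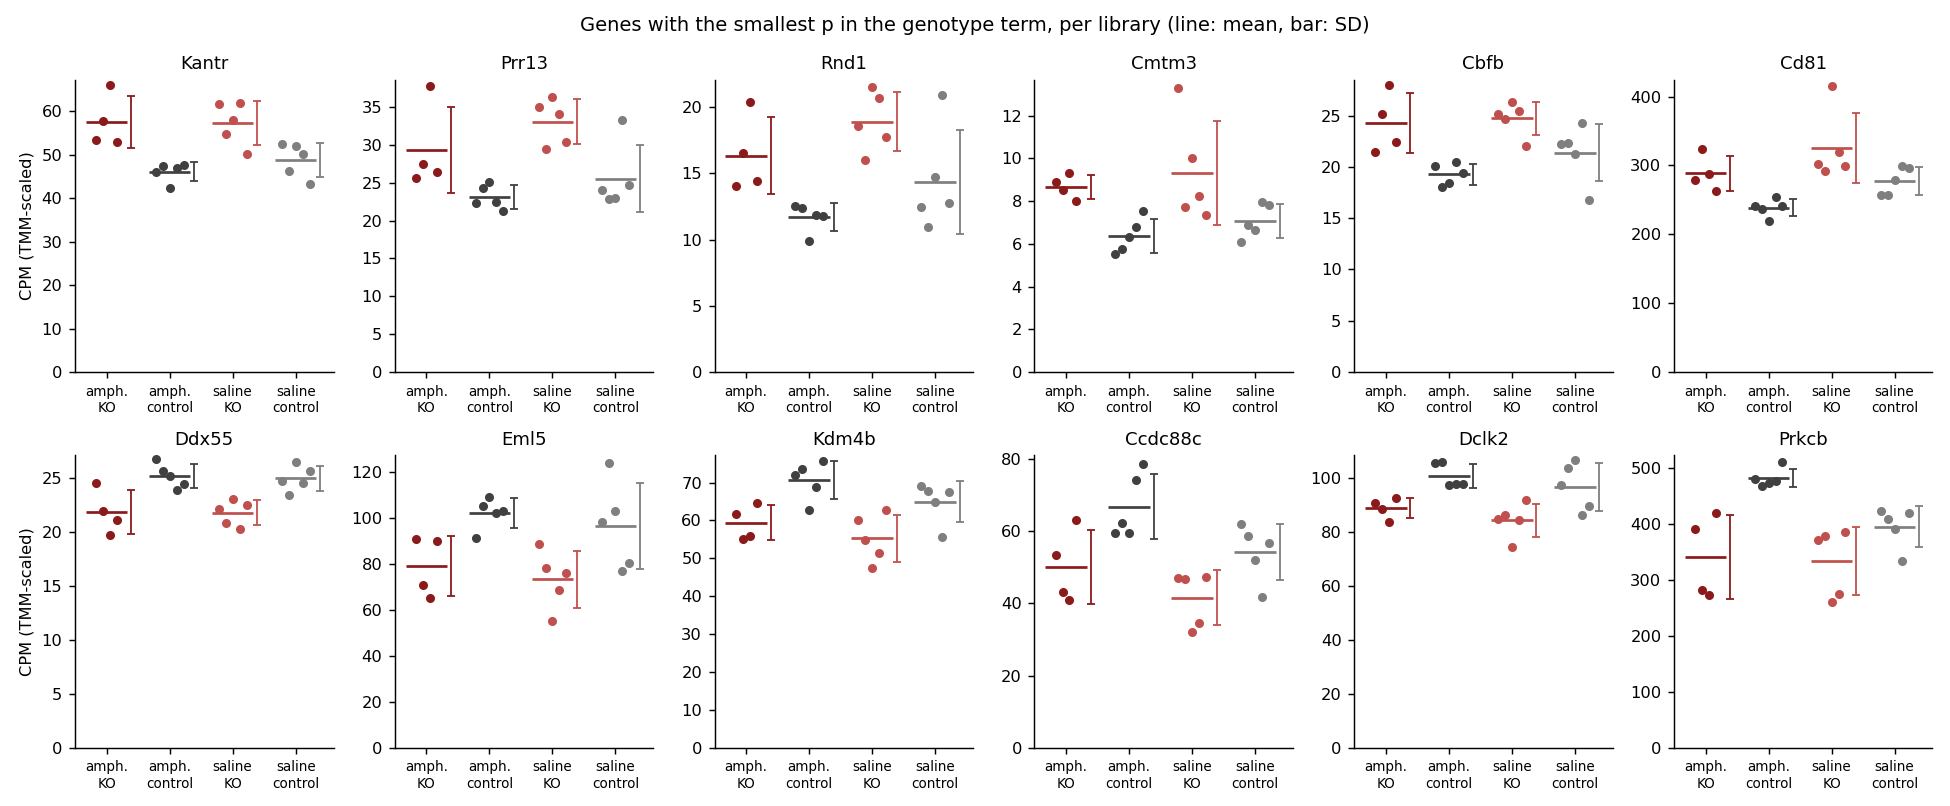
CPM (TMM-scaled, vertical axis from 0) of 12 genes with small p in the genotype term, 1 dot per library, in amphetamine KO, amphetamine control, saline KO and saline control mice; lines are means and bars SD (n = 4, 5, 5 and 5). In the upper row the KO means lie above the control means within both treatments and in the lower row below them, while single libraries overlap, such as saline control library 4 at 33.3 CPM for Prr13.

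The amphetamine and saline comparisons share no mice, so their agreement can be described without a shared control. Over 15225 genes with a mean of at least 1 CPM, the KO differences after amphetamine and after saline had a Spearman correlation of 0.082, and 52.8% of genes had the same sign. An unadjusted p under 0.05 in both was found for 123 genes, which are 5.9% of the 2068 such genes after amphetamine and 9.8% of the 1259 after saline. Over all 15225 genes, 8.3% had such a p after saline and 13.6% after amphetamine, so each shared part lay below the share among all genes. Of these 123, 42 were higher in KO mice both times, 30 were lower both times and 51 had opposite signs. The correlation ran from 0.051 without amphetamine KO library 3 to 0.198 without saline control library 5, among 5 libraries left out in turn. Genes that shared direction included Kantr, Prr13, Rnd1, Cmtm3, Cbfb, Cd81, Ddx55, Eml5, Kdm4b, Ccdc88c and Dclk2 from above. They had been picked by small p over both treatments, which favours genes with the same sign in each. Their shared direction is therefore no separate evidence of agreement. Col6a2, a collagen VI chain, had the smallest interaction p: its log2 fold change was 0.31 after amphetamine and -0.49 after saline (interaction, edgeR, adjusted p = 0.451).

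Further genes at an unadjusted p under 0.05 in both treatments, chosen after their values were seen and with none called, are given as values. Elavl4, a neuronal RNA-binding protein, was at 0.22 after amphetamine and 0.23 after saline, from a mean of 83.3 CPM in KO mice and 71.2 CPM in control mice. Gng3, a G protein gamma subunit of neurons, was at 0.28 in both, and Tuba1b, an alpha tubulin, at 0.34 after amphetamine and 0.24 after saline. Mrap2, an accessory protein of melanocortin receptors, averaged 24.3 CPM in KO mice and 16.0 CPM in control mice, at 0.73 after amphetamine and 0.47 after saline. On the lower side, Ppargc1b, a coactivator of mitochondrial genes, was at -0.37 after amphetamine and -0.39 after saline, and Nin, the centrosomal protein ninein, at -0.40 and -0.31. Opposite signs were seen for Tsku, a secreted proteoglycan, at 0.64 after amphetamine and -0.37 after saline, and for Tnxb, an extracellular matrix protein, at 0.59 and -0.54 (interaction, edgeR, adjusted p = 0.519 for each).

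Drd2 itself was lower in KO than in control striata on average, without passing the test. It had 113, 73.5, 34.1 and 121 CPM in amphetamine KO mice, against 182, 151, 141, 190 and 200 CPM in amphetamine control mice. In saline KO mice it had 96.9, 111, 116, 76.9 and 126 CPM, against 154, 145, 144, 95.6 and 85.3 CPM in saline control mice. The groups did not overlap after amphetamine, a separation not counted over all genes. They overlapped after saline, where control libraries 4 and 5 fell within the KO range of Drd2. Its log2 fold change was -0.61 ± 0.205 (edgeR, adjusted p = 0.398), with -1.02 after amphetamine and -0.25 after saline. Without amphetamine KO library 3 it was -0.46. With the scores of the ependymal, pallidal and septal, and cortical lists in the fit it was -0.60.

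The other dopamine receptors gave smaller values. Drd1, the receptor of the direct pathway, averaged 139 ± 43.4 CPM in KO mice and 179 ± 38.1 CPM in control mice (SD, n = 9 and 10), at -0.35 ± 0.191 (adjusted p = 0.513). That value was -0.79 after amphetamine and 0.05 after saline, and -0.21 over both without amphetamine KO library 3. Drd3, which is concentrated in the ventral striatum, was at -0.28 ± 0.249 (adjusted p = 0.682). Of 5 dopamine receptors tested, 3 had negative and 2 positive log2 fold changes, and 1 (Drd2) had an unadjusted p under 0.05.

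Among 19 genes that carry the dopamine signal inside projection neurons, all 19 had negative log2 fold changes, with a median of -0.30 (all genes tested 0.01, of which 10329 of 21513 were negative). None passed the test, and 7 had an unadjusted p under 0.05, against 0 without amphetamine KO library 2, 4 without amphetamine KO library 3 and 12 without saline control library 5. Rgs9, which shortens D2 receptor signalling by speeding GTP hydrolysis, ran from 68.4 over a median of 203 to 241 CPM in KO mice, against 163, 262 and 336 CPM in control mice (log2 fold change -0.48, adjusted p = 0.420). Pde1b and Pde7b, phosphodiesterases that break down cyclic nucleotides, were at -0.38 and -0.39. Rasd2, the striatal GTPase Rhes, was at -0.43. By treatment the list's median was -0.64 after amphetamine, with 0 of 19 members positive, and 0.02 after saline, with 10 of 19 positive. It was -0.21 without amphetamine KO library 3 and -0.36 without saline control library 5. Without 4 libraries that stand apart (amphetamine KO 2 and 3, saline KO 3 and saline control 5) and amphetamine control library 3 it was -0.16. The mean log2 CPM of the members was 7.64 ± 0.495 in amphetamine KO mice and 8.32 ± 0.132 in amphetamine control mice (SD). After saline it was 7.90 ± 0.279 in KO mice and 7.87 ± 0.274 in control mice. Amphetamine control mice thus stood above both saline groups, and amphetamine KO mice below them.

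Markers of striatal projection neurons, 7 of whose 20 members are also in that list, behaved alike, with 18 of 20 negative and a median of -0.29. None passed the test, and 7 had an unadjusted p under 0.05, all lower, against 1 without amphetamine KO library 2, 3 without amphetamine KO library 3 and 11 without saline control library 5. Bcl11b, the transcription factor CTIP2 of these neurons, had 114, 155 and 213 CPM as lowest, median and highest value in KO mice, against 131, 205 and 242 CPM in control mice (-0.29, adjusted p = 0.420). Actn2, an actinin of spines, was at -0.44. The median was -0.57 after amphetamine and -0.01 after saline, and -0.15 over both without the 4 libraries. The list score, the mean log2 CPM of the members, was 7.21, 6.69, 6.09 and 7.30 in amphetamine KO mice, against 7.53, 7.28, 7.36, 7.57 and 7.65 in amphetamine control mice. After saline it was 7.16, 7.22, 7.31, 6.70 and 7.23 in KO mice, against 7.30, 7.27, 7.28, 6.86 and 6.90 in control mice. Amphetamine KO libraries 2 and 3 were the lowest of their group, and 1 amphetamine KO library lay within the control range. In saline mice the scores of both genotypes overlapped.

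By pathway, of 11 indirect pathway genes, 11 were negative (median -0.15). Without amphetamine KO library 3, 9 of 11 were negative (median -0.05), and without saline KO library 3 the median was -0.25. Adora2a, the adenosine receptor of that pathway, was at -0.39 ± 0.242 (adjusted p = 0.554), and at -0.23 without amphetamine KO library 3. Of 10 direct pathway genes, 6 were negative (median -0.12, and -0.02 without the 4 libraries). By treatment, the indirect and direct medians were -0.28 and -0.36 after amphetamine, with 1 of 11 and 3 of 10 genes positive. After saline they were 0.02 and 0.05, with 6 of 11 and 8 of 10 genes positive. Chrm4, an inhibitory muscarinic receptor of the direct pathway, was at -0.26 (adjusted p = 0.505). Tac1, the substance P precursor of the direct pathway, averaged 216 ± 84.2 CPM in KO mice and 248 ± 40.9 CPM in control mice (-0.24, adjusted p = 0.671). Without amphetamine KO library 3 its log2 fold change was -0.09. Penk, the enkephalin precursor of the indirect pathway, averaged 679 ± 279 CPM in KO mice and 717 ± 112 CPM in control mice (-0.09, adjusted p = 0.878). Its highest value, 1314 CPM, was in saline KO library 3, and its lowest, 309.5 CPM, in amphetamine KO library 3.

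Cholinergic interneurons, which also carry D2 receptors, did not differ detectably. Chat, which makes acetylcholine, averaged 18.1 ± 5.76 CPM in KO mice and 18.6 ± 5.08 CPM in control mice (-0.05 ± 0.24, adjusted p = 0.954). Slc18a3, the vesicular transporter, was at -0.05 ± 0.222 (adjusted p = 0.951), and Slc5a7, the choline transporter, at 0.08 ± 0.202 (adjusted p = 0.909). Amphetamine KO library 3 had the lowest value of all libraries in each, with 3.71 CPM for Chat, 2.13 CPM for Slc18a3 and 11.6 CPM for Slc5a7.

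**Figure D2:**
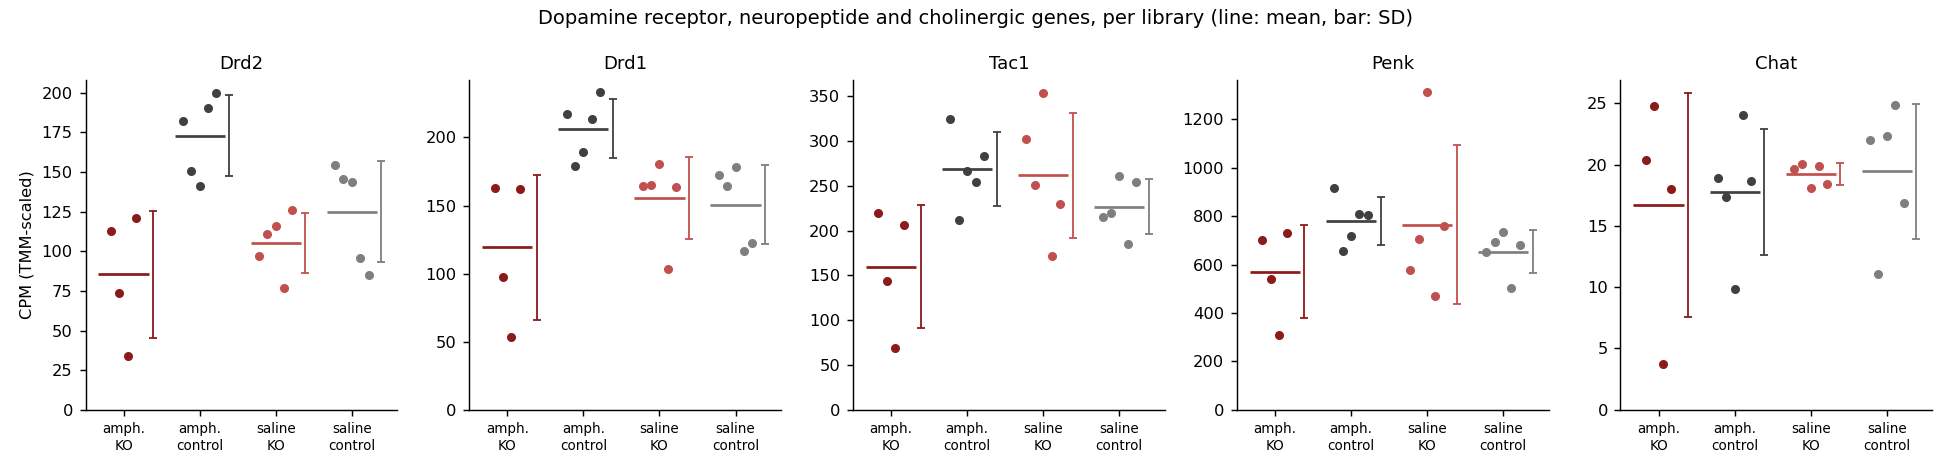
CPM (TMM-scaled, vertical axis from 0) of Drd2, Drd1, Tac1, Penk and Chat, 1 dot per library in amphetamine KO, amphetamine control, saline KO and saline control mice; lines are means and bars SD (n = 4, 5, 5 and 5). The 4 amphetamine KO libraries lie between 34.1 and 121 CPM for Drd2, below all 5 amphetamine control libraries, whereas the saline groups overlap. How many of all genes separate in this way was not counted.

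Markers of tissue beside the striatum were measured as lists, with none of their genes called. For 14 hypothalamic genes, all 14 log2 fold changes were positive with a median of 0.91, and 5 had an unadjusted p under 0.05. The median was 0.42 without the 4 libraries and amphetamine control library 3, and the number was 2 without both KO libraries 3. Trh, thyrotropin-releasing hormone, ran from 8.39 over a median of 30.2 to 55.9 CPM in KO mice, against 6.31, 9.70 and 50.5 CPM in control mice (log2 fold change 1.10, adjusted p = 0.397). Pmch, the melanin-concentrating hormone precursor, had 0.474, 0.788 and 1.80 CPM in KO mice, against 0.168, 0.436 and 0.812 CPM in control mice (0.95, adjusted p = 0.398). Otp, a hypothalamic transcription factor, had medians of 3.63 CPM in KO mice and 0.326 CPM in control mice. Ghrh, growth hormone-releasing hormone, had medians of 0.591 CPM in KO mice and 0.248 CPM in control mice. The hypothalamic score was 0.192, 0.699, 0.742 and -0.703 in amphetamine KO mice, against -0.139, -1.358, -2.43, -0.754 and -1.242 in amphetamine control mice. After saline it was 0.854, 0.554, 1.512, 1.337 and 1.333 in KO mice, against -0.605, -1.783, 0.616, 1.765 and 0.626 in control mice. The highest score of all was that of a saline control library and the lowest that of an amphetamine control library, and the groups overlapped in both treatments.

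Pallidal and septal genes were positive in 11 of 11 (median 0.28), with Zic2, a developmental transcription factor, at 0.32 and Dlk1, a Notch ligand homologue that is also imprinted, at 0.34. Ependymal genes, which build the cilia of the ventricle wall, were positive in 10 of 12 (median 0.26), with 4 at an unadjusted p under 0.05, among them Rsph1 at 0.38 and Tekt1 at 0.42. The ependymal median was 0.14 without amphetamine control library 3, and -0.04 without it and the 4 libraries, and 1 gene had such a p without amphetamine KO library 2. Choroid plexus genes had a median of 0.49 that rested on amphetamine KO library 2, without which it was 0.01. In that list Prlr, the prolactin receptor, and Kl, klotho, were at 0.90 and 0.41, with Kl at 0.15 without that library. Cortical projection neuron genes were positive in 5 of 14 (median -0.06). Amphetamine KO library 3, the lowest in striatal projection neuron genes, had the highest cortical score of all libraries, 5.895. Without it, 2 of 14 cortical genes were positive (median -0.14). The neighbouring-tissue medians were larger after amphetamine, at 1.33 for hypothalamus, 0.42 for pallidum and septum and 0.54 for ependyma, than after saline, at 0.56, 0.02 and 0.01. The mean ependymal score was 1.60 in amphetamine KO and 1.06 in amphetamine control mice, against 1.58 and 1.72 in saline KO and control mice. For pallidum and septum these means were 4.35 and 3.92, against 4.55 and 4.48, and for hypothalamus 0.232 and -1.185, against 1.118 and 0.124. Amphetamine control mice thus had the lowest mean in each of these lists. Any link to the projection neuron values was not tested. With 3 neighbouring-tissue scores in the fit, the median was -0.26 for projection neurons and -0.24 for the dopamine signal list, and 0 genes were called. The part of the hypothalamic signal in the other results was not tested.

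**Figure D3:**
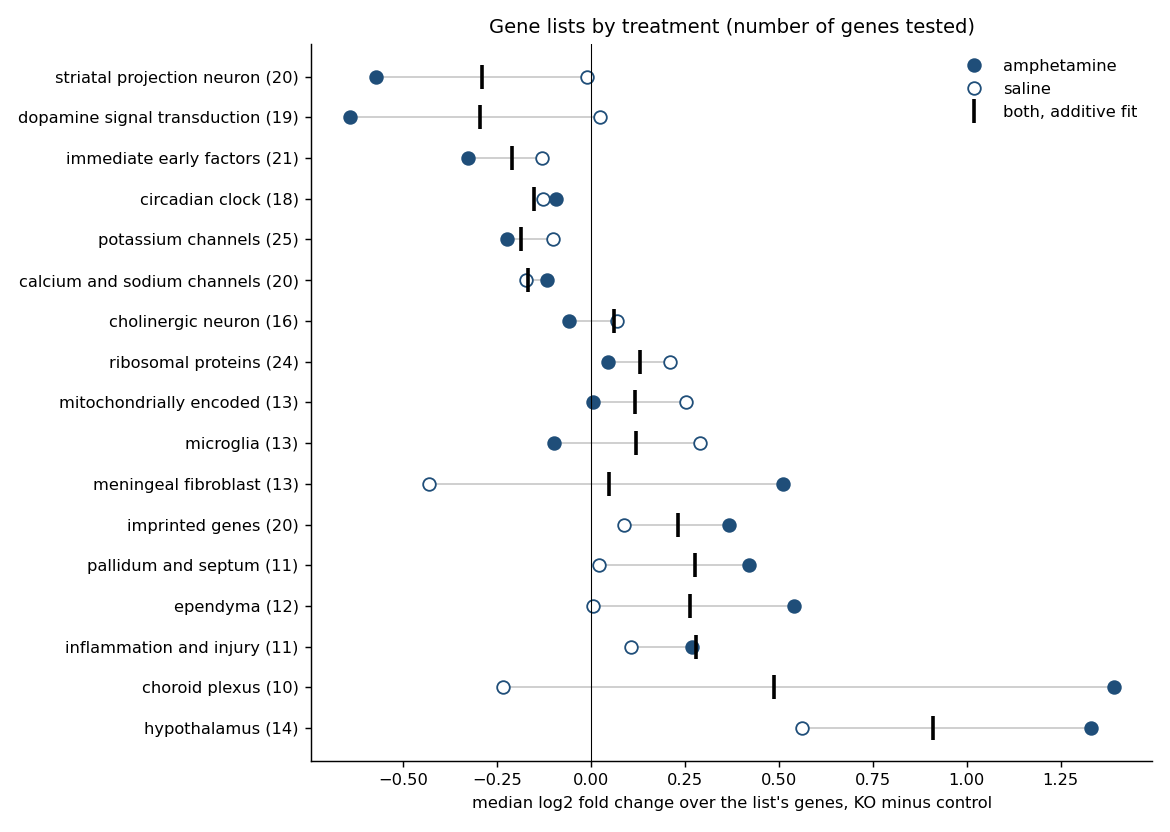
Median log2 fold change, KO minus control (horizontal axis), over the tested genes of 17 lists, with their number in brackets; filled dots are amphetamine, open dots saline, and bars the additive fit of both. Projection neuron and dopamine signal genes lie at -0.57 and -0.64 after amphetamine and near 0 after saline, whereas the clock and channel lists lie below 0 in both.

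The median of clock genes lay slightly below 0 in both treatments, at -0.09 after amphetamine and -0.13 after saline. In each treatment 4 of 18 clock genes were positive. The circadian clock is a loop in which BMAL1 (Arntl) with CLOCK or NPAS2 binds E-boxes and drives Per and Cry genes, whose products shut it off, while Nr1d1 represses Arntl. In the fit over both treatments all 18 tested clock genes had negative log2 fold changes, with a median of -0.15. None passed the test, and 5 had an unadjusted p under 0.05. Arntl had 26.7, 22.8, 23.7 and 25.2 CPM in amphetamine KO mice, against 28.0, 30.3, 30.7, 26.6 and 28.0 CPM in amphetamine control mice. In saline KO mice it had 31.7, 28.2, 24.9, 27.8 and 28.5 CPM, against 34.3, 35.6, 31.6, 27.1 and 49.3 CPM in saline control mice. The groups overlapped by 1 library after amphetamine, and saline control library 5 lay far above the rest. The log2 fold change was -0.28 ± 0.0817 (adjusted p = 0.397). Npas2, Nr1d1 and Cry2 were at -0.20, -0.17 and -0.17, with adjusted p of 0.455, 0.420 and 0.455. Without saline control library 5, 15 of 18 clock genes were negative, 2 had an unadjusted p under 0.05 and the median was -0.08. Without amphetamine KO library 2 that number was 1, and without the 4 libraries the median was -0.04.

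The E-box in its perfect form, CACGTG, was looked for in RefSeq promoter sequence of build GRCm38.p6. Each window ran from 250 bases before to 50 after a start, and a gene could have several starts. Since the motif is its own reverse complement, 1 search covers both strands. Windows were found for 16 of the 18 clock genes, and 5 of 16 genes (31.2%) held it in at least 1 window. Of all tested genes with a window, 1505 of 14088 (10.7%) did. A gene with more starts has more windows in which a match can lie. The lines below show 46 bases around the E-box, in capitals, of these 5 genes, read 5′ to 3′ on the strand of the gene, to let the core and its flanks be compared. Where a gene held more than 1 match, the one listed first is shown.
Per1: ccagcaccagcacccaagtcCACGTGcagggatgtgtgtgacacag
Cry1: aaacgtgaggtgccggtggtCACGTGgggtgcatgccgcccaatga
Tef: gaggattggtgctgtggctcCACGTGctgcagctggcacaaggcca
Bhlhe41: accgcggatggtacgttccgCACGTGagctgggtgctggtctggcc
Ciart: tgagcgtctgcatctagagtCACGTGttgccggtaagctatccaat
These lie at chr11:69098763-69098808 on the plus strand, chr10:85185089-85185134 on the minus strand, chr15:81802526-81802571 on the plus strand, chr6:145865548-145865593 on the minus strand and chr3:95882319-95882364 on the minus strand. The 5 genes, named here for their sequence and after values were seen, had log2 fold changes of -0.29 (Per1), -0.16 (Cry1), -0.12 (Tef), -0.04 (Bhlhe41) and -0.21 (Ciart). A match describes letters and not a bound site.

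Genes of calcium, sodium and potassium channels gave a like result. Of 20 calcium and sodium channel genes 18 were negative, with a median of -0.17, and 7 had an unadjusted p under 0.05, all lower. Cacnb2, an auxiliary calcium channel subunit, ran from 49.4 over a median of 59.3 to 66.4 CPM in KO mice, against 57.5, 64.6 and 77.8 CPM in control mice (-0.17 ± 0.0585, adjusted p = 0.398). Its value was -0.18 after amphetamine and -0.17 after saline. Cacna1h, a T-type channel, had 34.8, 65.2 and 86.2 CPM in KO mice, against 62.9, 81.7 and 94.8 CPM in control mice (-0.32, adjusted p = 0.398), and Cacnb4 was at -0.20. Among 25 potassium channel genes 20 were negative, with a median of -0.19, and 6 lower and 2 higher had an unadjusted p under 0.05. Kcnj4, an inward rectifier of projection neurons, was at -0.39, whereas Kcnip1, a subunit of A-type channels, was at 0.24. With each library's slope over gene length in the fit, the median was -0.07 for calcium and sodium channels and -0.11 for potassium channels, and 0 genes were called. Without saline KO library 3 these medians were -0.11 and -0.13, and without the 4 libraries and amphetamine control library 3 they were -0.06 and -0.02. Without amphetamine KO library 2, 4 calcium and sodium channel genes and 4 potassium channel genes had such a p.

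Transmitter receptors and peptides were mixed. Of 22 glutamate receptor genes 16 were negative (median -0.09), with Grin2c and Grin1, NMDA receptor subunits, at -0.28 and -0.13. GABA-A receptor genes were positive in 9 of 14 (median 0.06), with Gabrg1 at 0.26 and Gabrq at 0.80. Of 12 serotonin receptors 6 were positive, with Htr7 at 0.32. Oprd1, the delta opioid receptor, ran from 5.32 over a median of 14.8 to 17.3 CPM in KO mice, against 10.3, 18.9 and 20.5 CPM in control mice (-0.44, adjusted p = 0.420). Oprl1, the nociceptin receptor, and Pnoc, its peptide precursor, were both positive, at 0.28 and 0.54. Among 19 neuropeptide genes 10 were positive (median 0.02); Tac2, the neurokinin B precursor, and Gal, galanin, were at 0.93 and 1.20 (adjusted p = 0.397 and 0.398). Th and Ddc, enzymes of dopamine synthesis, were at -0.55 and 0.33 (adjusted p = 0.454 and 0.436). Th was at -0.25 without saline control library 2 and at -0.13 with the neighbouring-tissue scores in the fit, and Ddc at 0.18 without amphetamine KO library 2. None of these genes passed the test. Trh, Tac2, Gal and Gabrq are strongly expressed in the hypothalamus, and Trh is itself in the hypothalamic list. Gabrq was at 0.39 with the neighbouring-tissue scores in the fit, which leave out the hypothalamic list. Without the 4 libraries and amphetamine control library 3, Gal was at 0.63, Tac2 at 0.48, Pnoc at 0.26 and Htr7 at 0.13. The part of hypothalamic tissue in these values was not tested.

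Immediate early genes report recent neuronal activity. Of 21 such transcription factors 18 were negative, with a median of -0.21, and 1 (Ier5, at -0.37) had an unadjusted p under 0.05. Fos averaged 38.3 ± 7.77 CPM in KO mice and 42.1 ± 7.74 CPM in control mice (-0.14 ± 0.12, adjusted p = 0.679). Egr1 averaged 137 ± 35.0 CPM in KO mice and 160 ± 36.2 CPM in control mice (-0.20, adjusted p = 0.603). Fos differed by -0.13 after amphetamine and -0.14 after saline, and Egr1 by -0.29 and -0.13. Of 17 slower effector genes 14 were negative (median -0.10), with Homer1, whose short form is induced by activity, at -0.33 (adjusted p = 0.398) and Plk2, a kinase that prunes spines, at -0.22. The immediate early median was -0.33 after amphetamine and -0.13 after saline, and -0.09 with neighbouring-tissue scores in the fit.

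Imprinted genes, which are expressed from 1 parental copy and are rich in hypothalamus and septum, stood higher in KO mice. Of 20 tested 18 were positive, with a median of 0.23, and 7 had an unadjusted p under 0.05. Nnat, neuronatin, ran from 240 over a median of 304 to 482 CPM in KO mice, against 164, 241 and 381 CPM in control mice (0.48 ± 0.132, adjusted p = 0.397). Ndn, necdin, had 133, 203 and 293 CPM in KO mice, against 101, 152 and 244 CPM in control mice (0.38, adjusted p = 0.398). Impact and Gnas were at 0.24 and 0.18. The list's median was 0.37 after amphetamine and 0.09 after saline. Leaving out amphetamine KO library 2 gave 0.17, with 3 genes at such a p. With the neighbouring-tissue scores in the fit it was 0.12.

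**Figure D4:**
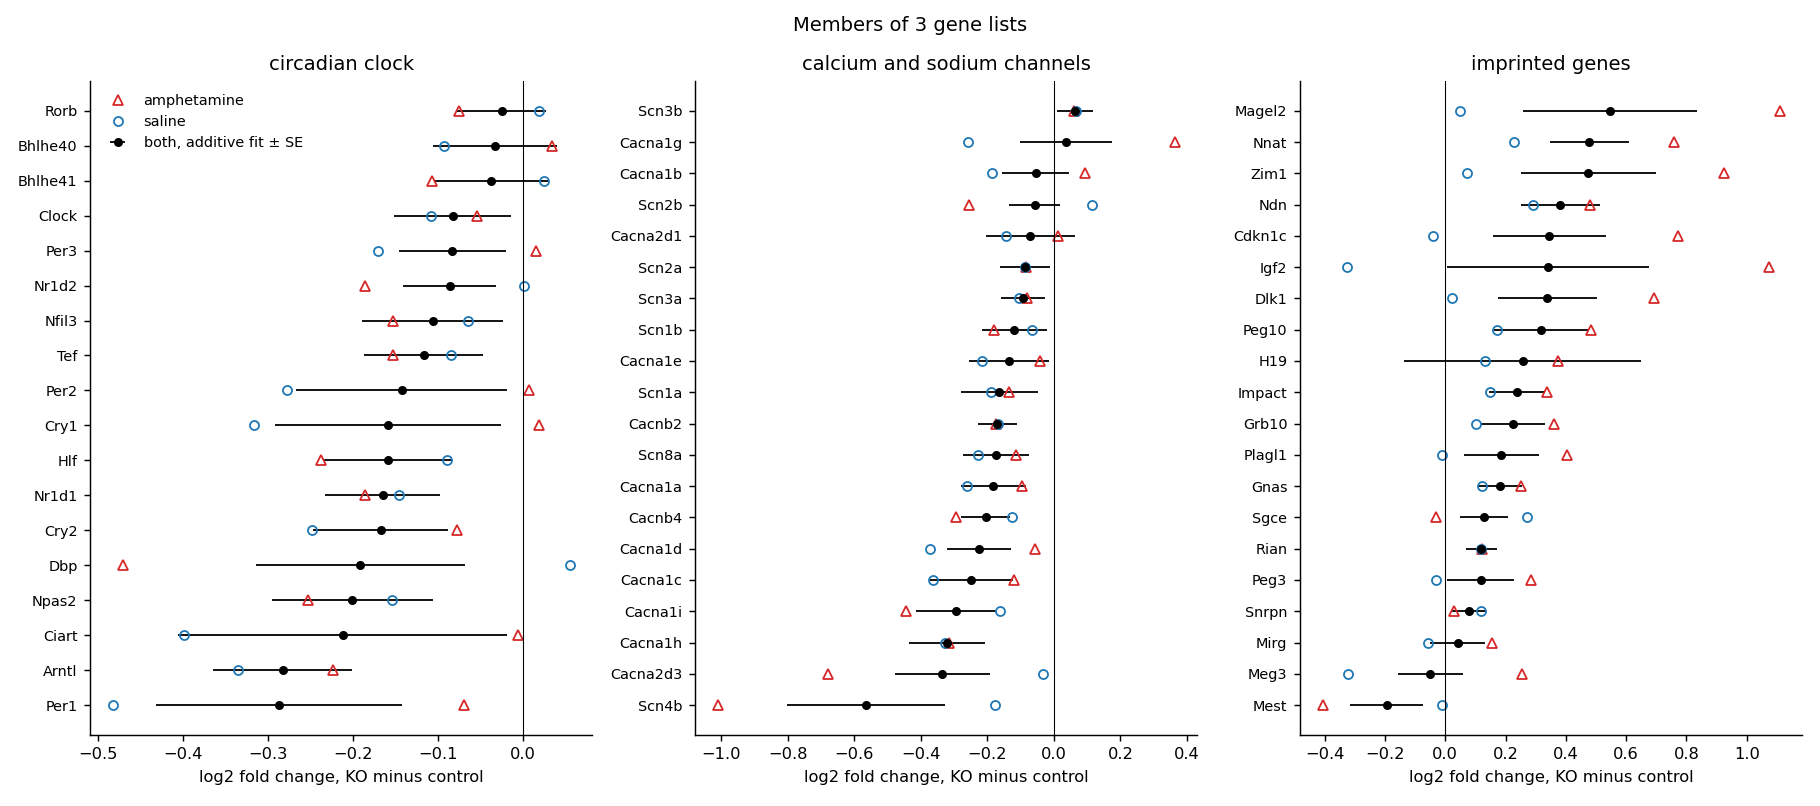
Log2 fold change, KO minus control (horizontal axis), of each clock, calcium and sodium channel, and imprinted gene tested; black dots with bars are the additive fit ± SE, triangles amphetamine and open circles saline. In the additive fit all 18 clock genes, 18 of 20 channel genes and 2 of 20 imprinted genes lie below 0.

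No gene of the glial, inflammation and meningeal lists was called. Of 13 microglial genes 11 were positive (median 0.12), with -0.10 after amphetamine and 0.29 after saline, and Tyrobp, a signalling adaptor of microglia, was at -0.11 and 0.39. Without saline control library 5, 9 of 13 microglial genes were positive over both treatments, with a median of 0.03. All 11 tested genes of inflammation and injury were positive (median 0.28). Without saline KO library 1, which had 124 CPM of Lcn2, an acute-phase gene, the median was 0.12. Serpina3n, a protease inhibitor of reactive astrocytes, ran from 10.9 over a median of 15.6 to 45.3 CPM in KO mice, against 7.71, 10.7 and 22.4 CPM in control mice (0.58 ± 0.205, adjusted p = 0.398). It was at 0.58 after amphetamine and 0.57 after saline, and at 0.35 over both without saline KO library 1. Meningeal fibroblast genes were positive in 12 of 13 after amphetamine (median 0.51) and in 0 of 13 after saline (median -0.43), and Col6a1, a collagen VI chain, was at -0.35 over both (adjusted p = 0.398). Astrocyte, oligodendrocyte, precursor and vessel lists had medians of 0.05, -0.03, 0.05 and 0.02.

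Short transcripts were relatively more abundant and long ones less abundant in KO libraries, and this went with 1 library. Gene length was taken from the ratio of counts to the authors' FPKM values. Across the 15225 genes, the log2 fold change had a Spearman correlation of -0.327 with that length, a description over genes that are not independent. With genes split by length into 4 equal groups, from shortest to longest, the median log2 fold changes were 0.06, 0.02, -0.01 and -0.05. In the shortest group 407 genes were higher and 60 lower at an unadjusted p under 0.05, and in the longest 92 were higher and 397 lower. Saline KO library 3 deviated by 0.38 in the shortest and -0.40 in the longest group from the mean of all libraries, where the other 18 libraries lay between -0.06 and 0.02 and between -0.04 and 0.06. Without it, the medians of these groups were 0.01 and -0.02.

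Ribosomal protein genes, which are short, showed the same. All 24 had positive log2 fold changes (median 0.13), with 6 at an unadjusted p under 0.05. Rplp1 ran from 433 over a median of 465 to 858 CPM in KO mice, the highest in saline KO library 3, against 371, 434 and 467 CPM in control mice (0.25, adjusted p = 0.420). Rpl32 was at 0.24. Without saline KO library 3, 19 of 24 were positive, with a median of 0.04 and 2 at such a p. Of 13 mitochondrially encoded genes 12 were positive (median 0.12), with mt-Nd4, a complex I subunit, averaging 4439 ± 628 CPM in KO mice and 3612 ± 1082 CPM in control mice (0.29, adjusted p = 0.515).

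**Figure D5:**
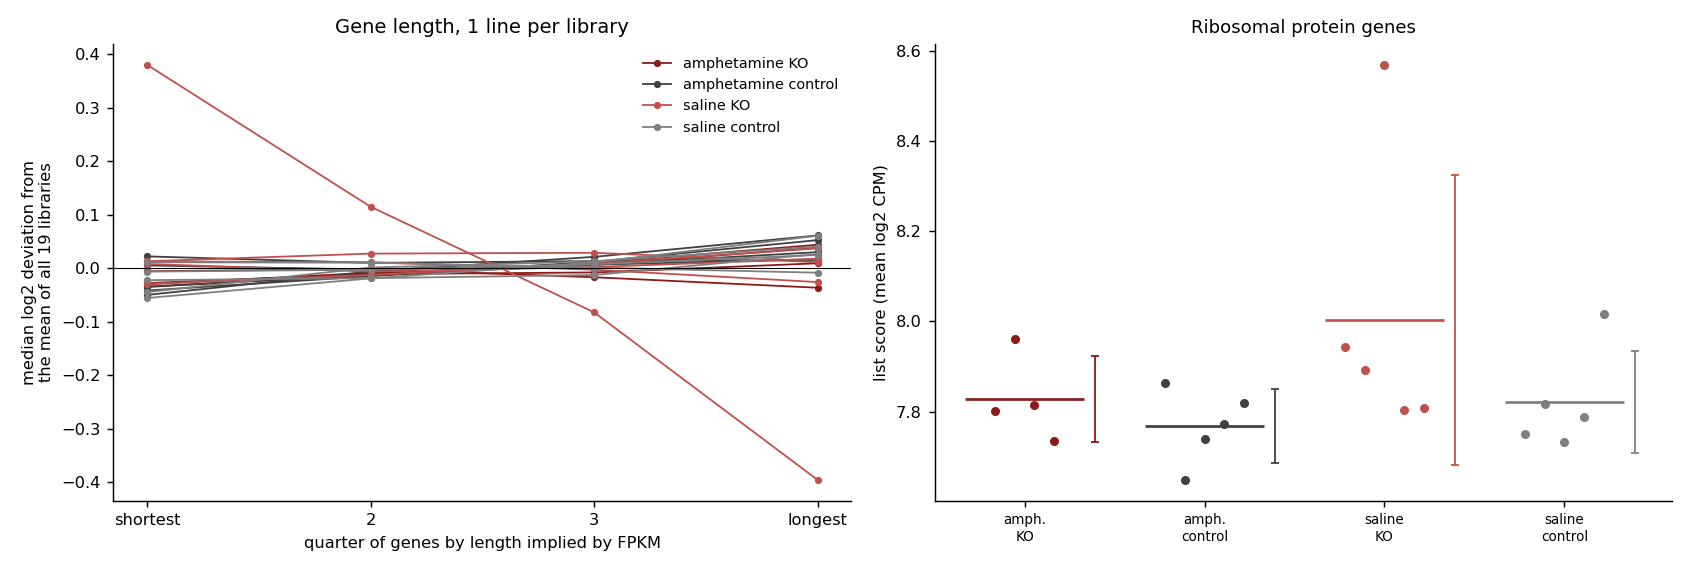
Left, median log2 deviation from the mean of all libraries (vertical axis) over 4 groups of genes by implied length, 1 line per library; right, mean log2 CPM of 24 ribosomal protein genes, 1 dot per library with mean and SD (amphetamine KO n = 4, other groups n = 5). Saline KO library 3 lies at 0.38 and -0.40 in the shortest and longest groups and at 8.57 for ribosomal genes, apart from all other libraries.

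The authors' deposited table of KO against control mice after saline, made with DESeq2, lists 22901 genes and calls 1, Spaca6, a sperm membrane protein gene, with a log2 fold change of -0.54 (adjusted p = 0.0243). In the fit over both treatments Spaca6 was at -0.19, with 0.19 after amphetamine, and had no unadjusted p under 0.05. For Kantr the authors' deposited table gives 0.23 and for Prr13 0.36, both with an adjusted p of 0.9.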

How the data were processed

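Striatal RNA of 19 mice was sequenced. The authors deposited whole-number gene counts per mouse; the submitters' processing notes list, without order or settings, STAR 2.6.0c and HTSeq 0.6.1p2 with Trim Galore 0.5.0 and FastQC 0.11.5, DESeq2 1.26.0s, R 3.6.1, and build GRCm39. The authors' deposited comparison tables give FPKM values, log2 fold changes with standard errors, p-values and adjusted p-values, which were not tested again; the FPKM values served only for gene length. Gene names came from these tables.

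The quasi-likelihood test of edgeR 4.0.16 was run in R 4.3.3 on the deposited counts: filterByExpr on the 4 groups kept 21513 of 49592 genes, scaled by TMM, and the robust fit had genotype and treatment as additive terms. Within-treatment and interaction values came from 4 group means fitted over all 19 libraries. P-values were adjusted by Benjamini-Hochberg over all genes, with calls at values under 0.05. SE is the log2 fold change over the root of F. Adjusted p-values in the text are edgeR's unless another tool is named. CPM is scaled by TMM. Labels do not say whether mice were littermates. The p-values rest on the spread between these mice and do not account for a shared litter or batch. Scripts were tested on simulated data.

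Genes named are the 12 with the smallest p in each direction, 10 set genes (Drd1, Drd2, Drd3, Chat, Slc18a3, Slc5a7, Penk, Tac1, Fos, Egr1) and up to 4 per list by p; exceptions are marked. The comparison and its 46 lists were chosen with earlier results of these data known. No set test was run: lists are described by counts and medians. Alternatives were DESeq2 1.42.0, limma 3.58.1 voom, other scaling, filters, models, covariates and libraries left out. Mouse numbers were not used to pair mice in the main fit, since the labels do not say that they do. Deviations of mice with the same title number correlated between -0.349 and 0.154 (median -0.029, other numbers -0.001). By the number in the sample descriptions they correlated between -0.193 and 0.197 (median 0.06). With groups of 4 or 5 mice, these values cannot exclude a shared litter or batch. Any pair of libraries differed beyond sampling noise (lowest chi-square over its degrees of freedom 11.2). A few genes that the rule names are not reported here.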

Additional observations from a re-analysis of the deposited data

Results flagged for a closer look

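Each group of 4 or 5 libraries was checked for a library far from the others. Of 204 groups checked, 24 held one, against 10.2 by chance, which flags about 1 in 20 groups at this limit. In CPM, for single genes, amphetamine KO library 3 stood apart at 37.77 for Prr13 (others 25.6 to 27.5) and 2.135 for Slc18a3 (others 8.15 to 9.06), and amphetamine KO library 1 at 0.3233 for Adgre4. Amphetamine control library 3 stood apart at 42.29 for Kantr, 9.922 for Rnd1 and 3.684 for Slc18a3, amphetamine control library 4 at 1.058 for Gm10060, and amphetamine control library 5 at 510.4 for Prkcb. Saline KO library 1 stood apart at 8.616 for Slc18a3, library 2 at 57.32 for Slc5a7, library 3 at 414.7 for Cd81, library 4 at 103.5 for Drd1 and library 5 at 0.06518 for Adgre4. Saline control library 2 stood apart at 2.307 for Aldh1a7 and library 4 at 33.29 for Prr13.

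Among list scores, in mean log2 CPM, amphetamine KO library 2 had 3.713 for choroid plexus genes (others 0.658 to 1.022). Ttr, the transthyretin gene of choroid plexus and named after its values were seen, had 595.5 CPM there, against 1.81 to 3.74 CPM in the other amphetamine KO libraries. Amphetamine control library 4 had 1.264 for the same list. Amphetamine control library 3 had the lowest scores of its group for cholinergic neurons (3.387), pallidum and septum (3.136) and ependyma (0.247). Saline KO library 3 had 8.57 for ribosomal proteins. Saline KO library 4 had 7.411 for dopamine signal genes, 6.701 for projection neurons and 6.502 for imprinted genes. The part of these libraries in the genotype term is shown by the values without them.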

How the results depend on the processing

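Across 33 other settings the genotype term called 0 genes except with no filter beyond 1 count (1 gene, Ighv1-85), without the 4 libraries picked earlier on principal components (amphetamine KO 2 and 3, saline KO 3, saline control 5; 2 genes, Igkv4-53 and Ighv1-85) and without those and amphetamine control 3 (2 genes, the same). DESeq2 called 103 genes after amphetamine, 2 after saline and 14 for the interaction. Without TMM 1 gene separated the groups. With each library left out in turn the count was 0 to 0 in the genotype term, in both treatments and in the interaction, and the genes at an unadjusted p under 0.05 in the genotype term numbered 1762 to 2986. That number was 1770 with the library total and 1662 with the length slope as covariate, and 1757 without amphetamine KO 3 and saline KO 3. The length slope and the removal of both those libraries were chosen after seeing the data. No other setting moved it by over 1.5 times except those without 4 or 5 libraries (1403 and 1352). A replicate block on the title number, which is not stated to pair mice, called 0 genes (1835 at an unadjusted p under 0.05).

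Of 89 named genes, none was called in the genotype term under any setting, and 15 of their values in that term changed sign. The genes that DESeq2 called within a treatment and for the interaction were not matched to these names. With the library total, Slc5a7 was at -0.043, Penk at 0.0149 and mt-Nd4 at -0.0327, and with neighbouring-tissue scores Slc5a7 was at -0.1572. Without the 4 libraries Chat was at 0.0175 and Slc18a3 at 0.0572, and without those and amphetamine control 3 Drd3 was at 0.0005. Without amphetamine KO 3 and saline KO 3 Chat was at 0.1134 and Slc18a3 at 0.08. With single libraries left out, Chat ran from -0.1531 (without amphetamine KO 2) to 0.0957 (without amphetamine KO 3), Slc18a3 from -0.1336 (without saline control 2) to 0.0882 and Penk from -0.2544 (without saline KO 3) to 0.028, both highest without amphetamine KO 3. Depth limits genes under 1 CPM, such as Gm10322, Olfr700 and Adgre4, most. The causes of these shifts were not tested.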

Other observations

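Several other gene lists were measured, with none of their genes called. Thalamic neuron genes were positive in 6 of 8 (median log2 fold change, KO minus control, 0.23), and GABA interneuron genes were negative in 8 of 14 (median -0.06). Interferon-induced genes were positive in 11 of 14 (median 0.09), at 0.30 after amphetamine and 0.13 after saline. Endoplasmic reticulum chaperones were positive in 14 of 16 (median 0.06), and cytosolic heat shock genes in 13 of 18 (median 0.06), of which 5 of 18 were positive after amphetamine and 18 of 18 after saline. Respiratory chain genes of the nucleus were positive in 15 of 22 (median 0.02), and in 5 of 22 (median -0.07) without saline KO library 3. Synaptic vesicle genes were negative in 11 of 20 (median -0.04).

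Ctcf, the chromatin insulator protein, was the 1 gene whose groups did not overlap when CPM was taken by library total without TMM. It had 72.7, 69.8, 70.8 and 72.8 CPM in amphetamine KO mice, against 79.8, 77.5, 76.3, 75.8 and 77.3 CPM in amphetamine control mice. In saline KO mice it had 73.2, 73.6, 65.7, 71.3 and 69.1 CPM, against 74.8, 79.9, 76.2, 74.7 and 78.1 CPM in saline control mice. The gap between the highest KO library, at 73.6 CPM, and the lowest control library, at 74.7 CPM, is small, and with TMM the groups overlapped.

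Single immunoglobulin segments, made by antibody-producing cells, were the genes called when libraries or filters changed. Ighv1-85 had 77, 7, 1 and 16 counts in amphetamine KO mice, against 1, 0, 0, 0 and 0 in amphetamine control mice. In saline KO mice it had 7, 0, 9, 6 and 3 counts, against 0 in each of the 5 saline control mice. Igkv4-53 had 71, 0, 2 and 40 counts in amphetamine KO mice, against 1, 0, 0, 1 and 0 in amphetamine control mice, and 0 to 3 in all saline mice. Summed over 395 immunoglobulin genes, counts were 5470, 6167, 2085 and 7939 in amphetamine KO mice, against 1858, 2389, 3057, 4839 and 2668 in amphetamine control mice. After saline they were 2568, 2299, 2917, 3107 and 2687 in KO mice, against 1907, 3245, 2153, 2481 and 5478 in control mice, and both pairs of groups overlapped. These genes were named after their values were seen.

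Lcn2, the lipocalin of inflammation, also named after its values were seen, had 124 CPM in saline KO library 1 and at most 4.91 CPM in any other library.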
